A study of Arabidopsis thaliana with 9 samples.

Results

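The ground tissue of the Arabidopsis thaliana root was followed through 6 genes: the zinc finger gene JKD, the GRAS gene AT5G41920, the co-regulator gene SEU, the cortex markers AT1G09750 and AT1G62500, and the endodermal receptor kinase gene GSO1. They were chosen by gene, with earlier results of these data known. Each lay on 1 named probe set, so 6 probe sets of the 22746 with deposited values were followed. JKD is locus AT5G03150, SEU is AT1G43850 and GSO1 is AT4G20140. AT1G09750, AT1G62500 and SEU lie on chromosome 1, GSO1 on chromosome 4, and JKD and AT5G41920 on chromosome 5.

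RNA came from whole roots collected 7 days after germination, and each sample was hybridised to 1 Affymetrix ATH1 array. All 9 samples carried ga1-3, a mutation in the gibberellin synthesis gene GA1, so the controls were gibberellin-deficient too. There were 3 samples labelled ga1-3 SCL3OE (SCL3 overexpression in ga1-3, here SCL3OE), 3 labelled ga1-3 scl3-1 (the ga1 scl3 double mutant, here scl3-1) and 3 of ga1-3 with no second change. The series calls them biological triplicates. The promoter of the overexpression construct and the number of independent lines behind it are not given in the sources used here, and levels of SCL3 and GA1 themselves were not analysed here. The genotype labels behind every comparison were therefore not checked by the manipulated genes.

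Cortex and endodermis, the layers of the root ground tissue, arise from the asymmetric division of shared initial cells. The GRAS protein SHORT-ROOT (SHR) moves outwards from the stele into the neighbouring layer, where it acts with SCARECROW (SCR). Zinc finger proteins such as JACKDAW (JKD) hold SHR in the layer that becomes endodermis and sustain SCR expression. SCL3, another GRAS protein, counteracts the DELLA repressors of gibberellin signalling and acts with SHR and SCR in the maturation of the ground tissue.

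In SCL3OE roots JKD, AT5G41920 and both cortex markers were lower than in ga1-3, by log2 changes between -1.23 and -0.63. SEU and GSO1 did not pass the test. Of all tested probe sets, 25.9% were lower in that comparison. JKD and AT5G41920 lay under the brightness filter described below on every SCL3OE array. They were tested only through groups where they were high, which favoured a lower call. In scl3-1 roots 0 of the 6 genes passed against ga1-3, where 0.538% of all tested probe sets did. Set against scl3-1, SCL3OE roots again had lower JKD, AT1G09750 and AT1G62500 signals, where 23.6% of all tested probe sets were lower. The comparisons share groups of arrays, so their results are not independent of each other.

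The values are MAS5 signals on a linear scale, each array scaled by the authors to a common trimmed mean. Probe sets were tested if 3 or more arrays reached the 40th percentile of that array (the filter level, on average a signal of 105.9). This left 14117 probe sets, all 6 of these among them. All adjusted p-values are from limma across those probe sets, two-sided with Benjamini-Hochberg adjustment, and a gene was called at an adjusted p under 0.05. Precision is limited by the 3 arrays in each group. SCL3OE arrays stood apart from the rest, with Pearson's r across tested probe sets of 0.929 to 0.945 to other arrays, against 0.978 to 0.985 between scl3-1 and ga1-3 arrays. In that setting 43.8% of all tested probe sets were called in SCL3OE against ga1-3, 25.9% of them all as lower and 18.0% as higher. In scl3-1 against ga1-3 the share called was 0.538%, and in SCL3OE against scl3-1 it was 39.2%, with 23.6% lower and 15.5% higher. Whole roots were profiled, so fewer cells of a layer and less RNA per cell cannot be told apart in any value given here.

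**Figure D1:**
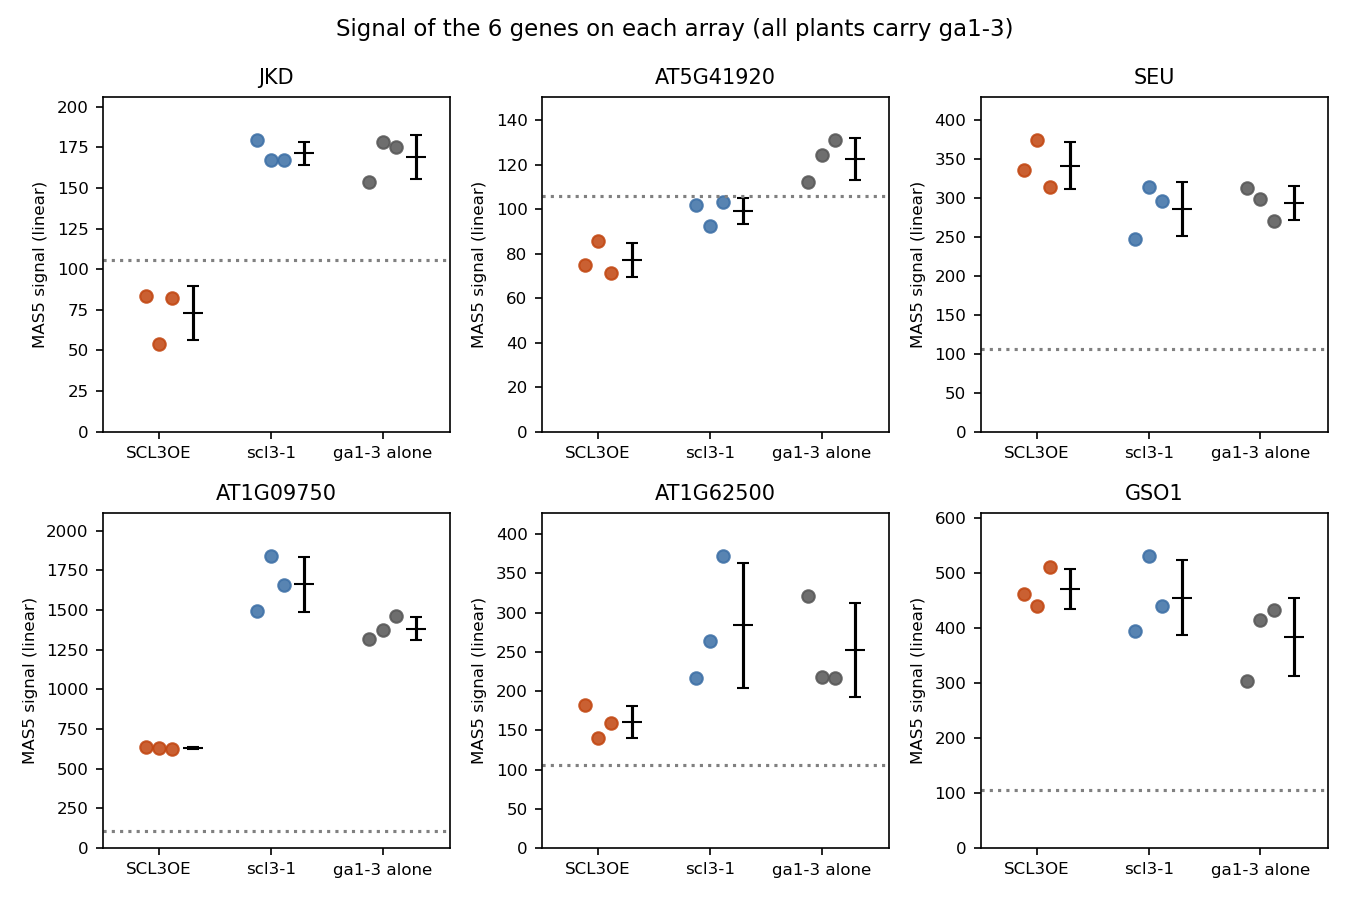
Linear MAS5 signal of each of the 6 genes (vertical axes, each from 0) on the 3 arrays of SCL3OE, scl3-1 and ga1-3 (points), with the group mean and SD (black bars) and the mean filter level of 105.9 (dotted line). JKD, AT5G41920, AT1G09750 and AT1G62500 lie lowest on the SCL3OE arrays, and SEU and GSO1 do not.

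Among the regulators, JKD showed the largest difference in SCL3OE. Its signal was 83.5, 54.1 and 82.0 on the SCL3OE arrays, 179, 167 and 167 on the scl3-1 arrays, and 154, 179 and 175 on the ga1-3 arrays. Every SCL3OE array lay far below all 6 others, whereas scl3-1 and ga1-3 overlapped. The means were 73.2 ± 16.6 in SCL3OE and 169 ± 13.6 in ga1-3 (SD, n = 3 each), a log2 change of -1.23 (SE 0.18, 95% interval -1.62 to -0.85, adjusted p = 6.92e-05). The change was more negative for 2.00% of the tested probe sets. Against scl3-1, whose mean was 171 ± 7.01 (SD, n = 3), JKD fell by 1.25 on the log2 scale (SE 0.18, adjusted p = 6.36e-05). JKD did not pass in scl3-1 against ga1-3, with a change of 0.02 and a 95% interval of -0.37 to 0.41. The 3 SCL3OE arrays were all under the filter level, so JKD was tested only through the groups where it was high and the size of the fall is uncertain. With an offset of 50 added before log2 it was -0.84 against ga1-3.

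AT5G41920, which RefSeq annotates as SCARECROW-LIKE 23, was the dimmest of the probe sets relative to the filter. It belongs to the same protein family as SHR, SCR and SCL3. Signals were 74.8, 85.8 and 71.4 in SCL3OE, 102, 92.7 and 103 in scl3-1, and 112, 125 and 131 in ga1-3. The 3 groups did not overlap, and scl3-1 lay between SCL3OE and ga1-3. SCL3OE averaged 77.3 ± 7.52 and ga1-3 averaged 123 ± 9.56 (SD, n = 3 each), and AT5G41920 fell by 0.67 on the log2 scale (SE 0.17, adjusted p = 0.00553). The scl3-1 mean of 99.3 ± 5.78 (SD, n = 3) did not differ from that of ga1-3 by the test (-0.30, SE 0.17, 95% interval -0.67 to 0.06, adjusted p = 0.584). SCL3OE against scl3-1 did not pass either (-0.36, SE 0.17, adjusted p = 0.107), except by eBayes without trend (adjusted p = 0.0207). The order ga1-3, scl3-1, SCL3OE therefore rests on neighbours that were not separated by the test, while its ends were. Only the 3 ga1-3 arrays reached the filter level, so this gene was tested only through the group where it was highest, and a difference was built into its selection. With no filter it was still called in SCL3OE against ga1-3, at the same change, and with an offset of 50 the change was -0.44.

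SEU, a transcriptional co-regulator that works with LEUNIG-type repressors and is best known from flower development, had small positive changes in SCL3OE that did not pass the test. Signals were 336, 374 and 315 in SCL3OE, 247, 315 and 296 in scl3-1, and 312, 298 and 270 in ga1-3. The lowest SCL3OE array lay just above the highest of the other 6. SCL3OE averaged 342 ± 30.1 and ga1-3 averaged 294 ± 21.3 (SD, n = 3 each). The log2 change of 0.22 did not pass (SE 0.13, 95% interval -0.05 to 0.49, adjusted p = 0.179), but it did under quantile normalization (0.34, adjusted p = 0.0375). Against scl3-1, with a mean of 286 ± 34.8 (SD, n = 3), the change was 0.26 (SE 0.13, adjusted p = 0.119). That comparison passed under quantile normalization, at 0.41 and an adjusted p of 0.0172, and under median centring, at 0.38 and an adjusted p of 0.0230. In scl3-1 against ga1-3 the change of -0.04 lay in an interval of -0.31 to 0.23.

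Both cortex markers were lower in SCL3OE, and AT1G09750 had the clearest difference of the 6 genes. It gave 634, 630 and 623 in SCL3OE, 1492, 1838 and 1661 in scl3-1, and 1318, 1372 and 1460 in ga1-3. The SCL3OE arrays lay within a narrow band below every other array, and each scl3-1 array lay above each ga1-3 array. SCL3OE averaged 629 ± 5.61 and ga1-3 averaged 1383 ± 71.5 (SD, n = 3 each), a ratio of 0.455 and a log2 change of -1.14 (SE 0.10, 95% interval -1.34 to -0.93, adjusted p = 3.58e-07). Against scl3-1, at 1663 ± 173 (SD, n = 3), SCL3OE had a ratio of 0.378 and a log2 change of -1.40 (SE 0.10, adjusted p = 4.32e-08). Only 1.56% of tested probe sets had a more negative change in that comparison. In scl3-1 against ga1-3 the change of 0.26 (SE 0.10, 95% interval 0.06 to 0.47) did not pass, with an unadjusted p of 0.0161 and an adjusted p of 0.312 in limma. Non-overlapping groups with scl3-1 higher were found for 7.37% of all tested probe sets.

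AT1G62500 varied more between replicates than the other genes. Signals were 182, 140.1 and 160 in SCL3OE, 216, 264 and 372 in scl3-1, and 321, 218 and 217 in ga1-3. All SCL3OE arrays were below the other 6, and scl3-1 and ga1-3 were interleaved, with scl3-1 replicate 3 and ga1-3 replicate 1 far above their groups. The within-group SD was 0.32 on the log2 scale, above that of 95.5% of tested probe sets, for which the median was 0.15. AT1G62500 fell to 161 ± 20.9 in SCL3OE, against 252 ± 60.1 in ga1-3 (SD, n = 3 each), by 0.63 on the log2 scale (SE 0.20, 95% interval -1.06 to -0.21, adjusted p = 0.0171). The call ended without ga1-3 replicate 1 (-0.45, adjusted p = 0.0800) and without SCL3OE replicate 2 (-0.54, adjusted p = 0.0751). Against scl3-1, at 284 ± 79.7 (SD, n = 3), the change was -0.79 (SE 0.20, adjusted p = 0.00509), and this call held without any 1 array (adjusted p up to 0.0338). In scl3-1 against ga1-3 the change was 0.16 (SE 0.20, adjusted p = 0.852), and it was -0.05 without scl3-1 replicate 3.

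GSO1, also known as GASSHO1, encodes a leucine-rich repeat receptor kinase that the endodermis needs for a continuous Casparian strip, its water-tight wall band. It gave 463, 441 and 511 in SCL3OE, 396, 530 and 441 in scl3-1, and 303, 415 and 433 in ga1-3. The SCL3OE arrays lay above the 3 ga1-3 arrays, by little for the nearest pair, and scl3-1 overlapped with both. The means were 471 ± 35.7 in SCL3OE, 456 ± 68.6 in scl3-1 and 384 ± 70.3 in ga1-3 (SD, n = 3 each). The log2 change of GSO1 was 0.31 in SCL3OE against ga1-3 (SE 0.15, 95% interval 0.002 to 0.62, adjusted p = 0.0958) and 0.25 in scl3-1 against ga1-3 (SE 0.15, 95% interval -0.05 to 0.56, adjusted p = 0.587). The difference between SCL3OE and scl3-1 was 0.06 (SE 0.15, 95% interval -0.25 to 0.37). The change against ga1-3 in SCL3OE passed under quantile normalization, at 0.44 and an adjusted p of 0.0320, and under median centring, at 0.39 and an adjusted p of 0.0434. It was 0.15 without ga1-3 replicate 1 (adjusted p = 0.381), the array with the lowest GSO1 signal.

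**Figure D2:**
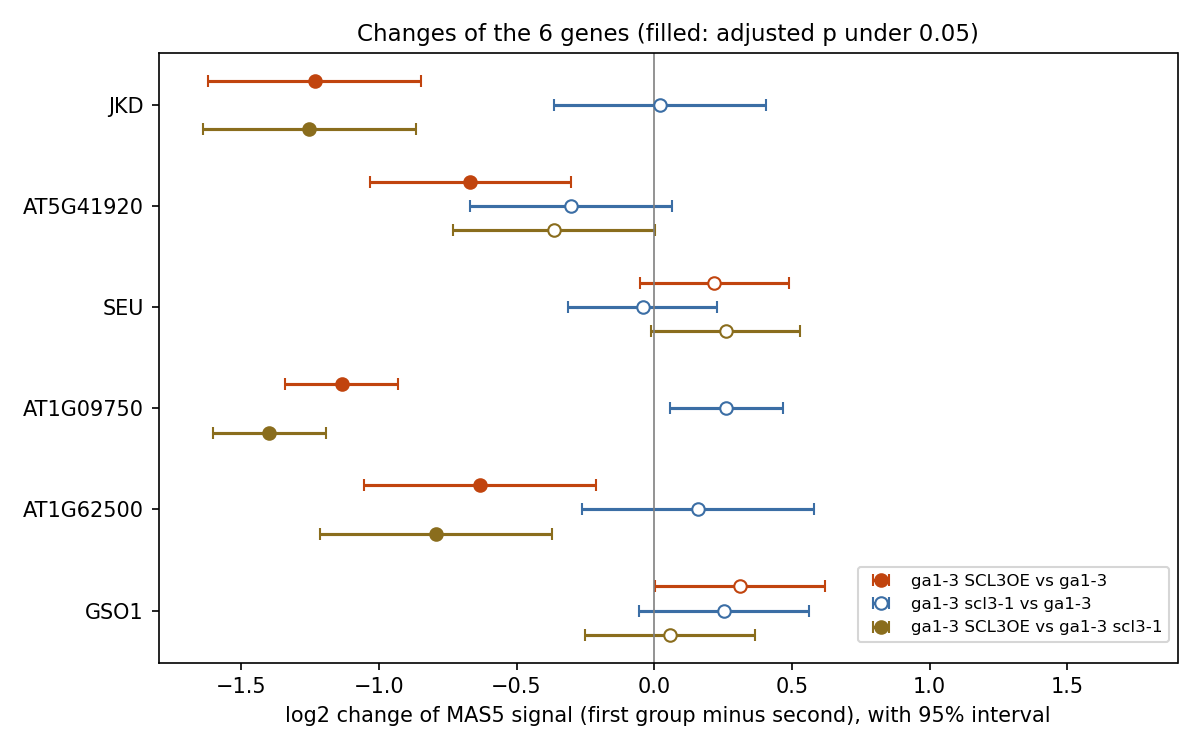
Log2 change of MAS5 signal (horizontal axis) for each gene in SCL3OE against ga1-3, scl3-1 against ga1-3 and SCL3OE against scl3-1, with 95% intervals from limma and filled points for adjusted p under 0.05. The filled points are JKD, AT1G09750 and AT1G62500 in both SCL3OE comparisons and AT5G41920 against ga1-3, all below 0.

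Counted over the 6 genes, SCL3OE against ga1-3 had 4 lower, 0 higher and 2 not called, where 25.9% of all tested probe sets were lower. SCL3OE against scl3-1 had 3 lower, 0 higher and 3 not called, where 23.6% were lower. JKD and AT5G41920 passed the filter only through groups where they were high, which favoured a lower call in SCL3OE, so these counts and the medians below are descriptions only. Of the 4 genes above the filter level on all 9 arrays, the 2 cortex markers were lower in both comparisons and SEU and GSO1 were not called. In scl3-1 against ga1-3 limma called 0 of the 6, where 0.538% of all tested probe sets were called. It also called 0 of the 6 under each alternative tried. At so low a share, 0 calls among 6 genes say little about them. An unadjusted p under 0.05 was reached there by AT1G09750, 1 of the 6, where 10.7% of all probe sets reached it. In SCL3OE 5 of the 6 reached it against ga1-3, where 51.2% did, and 3 of the 6 against scl3-1, where 47.3% did. SCL3OE and ga1-3 arrays were separate for all 6 genes, 4 lower and 2 higher, as were 53.6% of tested probe sets, 31.5% lower and 22.1% higher. SCL3OE and scl3-1 arrays were separate for 5 of 6, 4 lower and 1 higher, as were 52.8% of probe sets, 31.5% lower and 21.3% higher. The scl3-1 and ga1-3 arrays were separate for AT5G41920, which was lower, and AT1G09750, which was higher, as were 14.1% of probe sets, 6.68% lower and 7.37% higher. The median log2 change of the 6, JKD and AT5G41920 included, was -0.65 in SCL3OE against ga1-3 and -0.58 against scl3-1, beside -0.07 over all tested probe sets in both. It was 0.09 in scl3-1 against ga1-3, beside 0.01 over all.

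The median of all tested probe sets depended on the scaling: in SCL3OE against scl3-1 it lay between -0.07 with the deposited scaling and 0.06 with median-centred arrays, a shift of 0.12. Relative to the median with the deposited scaling, that comparison gave -1.19 for JKD, -1.33 for AT1G09750, -0.73 for AT1G62500, -0.30 for AT5G41920, 0.32 for SEU and 0.12 for GSO1. Of the probe sets called in SCL3OE against ga1-3, 41.0% were higher with the deposited scaling, 48.6% after quantile normalization and 53.4% with median-centred arrays. Against scl3-1 these shares were 39.6%, 49.2% and 59.0%. The calls of JKD, AT1G09750 and AT1G62500 in both SCL3OE comparisons held under all 3 scalings.

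**Figure D3:**
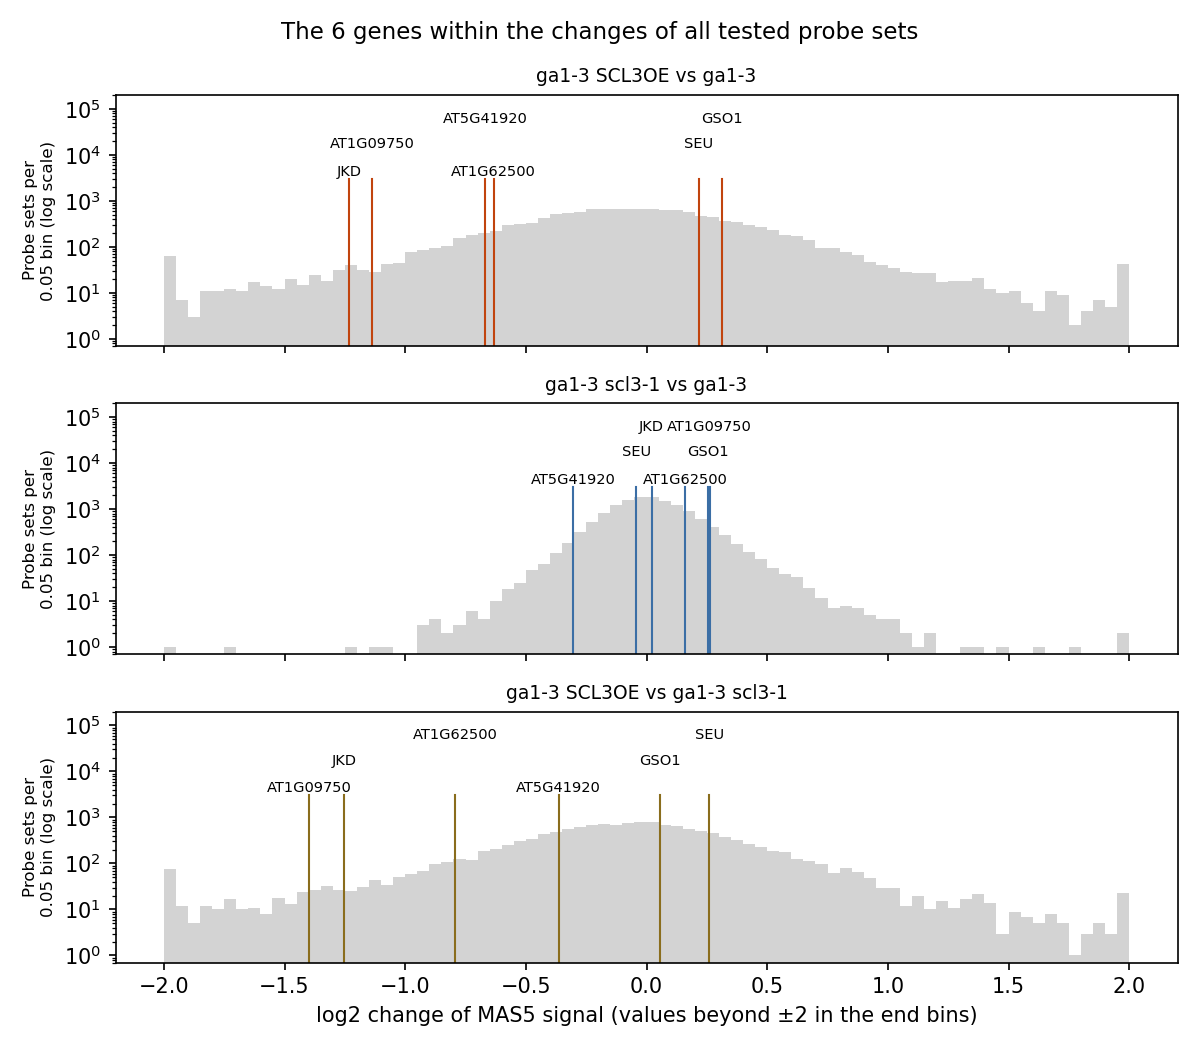
Number of tested probe sets (vertical axes, log scale) per 0.05 bin of log2 change of MAS5 signal (horizontal axis, values beyond ±2 in the end bins) in each comparison, with the 6 genes marked by lines. JKD and AT1G09750 lie in the lower tail in both SCL3OE comparisons, where 1.56% to 2.47% of probe sets had a more negative change. In scl3-1 against ga1-3 the 6 genes lie between -0.30 for AT5G41920, with 3.36% of probe sets more negative, and 0.26 for AT1G09750, with 8.08% more positive.

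Another cortex marker, AT1G62510, is the chromosome 1 neighbour of AT1G62500 with 0 genes between them. Of 4 listed cortex markers 3 were measured and tested. All 3 were lower in SCL3OE against ga1-3, where 25.9% of all tested probe sets were lower. All 3 were also lower against scl3-1, where 23.6% were. The list, and AT1G09750 and AT1G62500 on it, were chosen with earlier results of these data known, so these counts are descriptions only. AT1G62510 gave 312, 301 and 346 in SCL3OE, 629, 787 and 659 in scl3-1, and 547, 435 and 429 in ga1-3. The 3 groups did not overlap, with SCL3OE lowest and scl3-1 highest. It fell by 0.55 on the log2 scale in SCL3OE against ga1-3 (SE 0.13, adjusted p = 0.00244) and by 1.11 against scl3-1 (SE 0.13, adjusted p = 6.85e-06). Its change of 0.56 in scl3-1 against ga1-3 (SE 0.13, adjusted p = 0.0679) did not pass, but did without ga1-3 replicate 1 (0.67, adjusted p = 0.0193) and with array weights (0.64, adjusted p = 0.0193). The summed signal of the 3 cortex markers was 1071 to 1129 in SCL3OE, 2337 to 2889 in scl3-1 and 2025 to 2187 in ga1-3. AT1G09750 made up the largest part of each sum, and the sums were not tested. None of the 3 was called in scl3-1 against ga1-3, where 0.538% of all tested probe sets were, so 0 calls say little about them. Groups that did not overlap, with scl3-1 higher, as for AT1G62510, were found there for 7.37% of all tested probe sets.

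Of 17 listed genes of the SHR and SCR network, 6 were on named probe sets and 5 were tested, 3 of them JKD, AT5G41920 and SEU. The other 2 were SLY2, an F-box gene of DELLA degradation, and PHV, a class III HD-ZIP gene that patterns organs and vascular tissue. SLY2 gave 47.5, 77.3 and 67.6 in SCL3OE, 165, 124 and 147 in scl3-1, and 176, 142 and 140.4 in ga1-3. The SCL3OE arrays lay below all others, and scl3-1 and ga1-3 overlapped. SLY2 fell by 1.27 on the log2 scale in SCL3OE against ga1-3 (SE 0.20, adjusted p = 0.000143) and by 1.20 against scl3-1 (SE 0.20, adjusted p = 0.000271). With an offset of 50, for its SCL3OE signals below the filter level, SLY2 changed by -0.83 against ga1-3 and -0.78 against scl3-1. PHV averaged 255 ± 23.5 in SCL3OE and 321 ± 31.9 in ga1-3 (SD, n = 3 each), and fell by 0.33 on the log2 scale (SE 0.12, adjusted p = 0.0422). The PHV call ended under quantile normalization (-0.20, at an adjusted p of 0.176), under median centring (-0.25, at an adjusted p of 0.117), with no dim filter (adjusted p = 0.0624), with a replicate block (adjusted p = 0.0505) and with only the 6 arrays compared (adjusted p = 0.0561). It also ended without ga1-3 replicate 1 or 2, scl3-1 replicate 2 or 3, or SCL3OE replicate 2 or 3, at adjusted p of 0.0519 to 0.153. The 5 tested network genes did not include SHR or SCR. Of these 5, 4 were lower and 0 higher in SCL3OE against ga1-3, where 25.9% of all tested probe sets were lower. Against scl3-1, 2 of the 5 were lower, where 23.6% were, and 0 were called in scl3-1 against ga1-3, where 0.538% were. Of the 4, JKD, AT5G41920 and SLY2 reached the filter level on no SCL3OE array and were tested only through groups where they were high, so the count is a description only.

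JKD belongs to the indeterminate domain (IDD) family of zinc finger proteins, of which 5 of 16 listed genes were on named probe sets. JKD alone was tested. The other 4 stayed at or under a signal of 108 on every array, and the brightest of them, AT3G45260, reached the filter level on 1 of 9.

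For the GRAS family, 14 of 33 listed genes were on named probe sets and 9 were tested. With AT5G41920, which was tested only through ga1-3, 4 of the 9 were lower in SCL3OE against ga1-3, where 25.9% of all tested probe sets were lower. Without it, 3 of the other 8 were lower. None were higher, 5 were not called, and the median log2 change of the 9 was -0.37. SCL21 averaged 212 ± 15.4 in SCL3OE and 289 ± 14.7 in ga1-3 (SD, n = 3 each) and fell by 0.45 on the log2 scale (SE 0.12, adjusted p = 0.00691). AT5G59450 fell by 0.37 (SE 0.10, adjusted p = 0.00931), although not after quantile normalization (-0.23, adjusted p = 0.0900). AT3G46600 fell by 0.39 (SE 0.12, adjusted p = 0.0190). Its call ended under quantile normalization, at an adjusted p of 0.0942, and under median centring, at 0.0561. It also ended without ga1-3 replicate 3, at an adjusted p of 0.0963, SCL3OE replicate 1, at 0.0575, or SCL3OE replicate 2, at 0.0520. Against scl3-1, 1 was higher and 1 lower, where 15.5% and 23.6% of all tested probe sets were. In scl3-1 against ga1-3 limma called 0 of the 9, where 0.538% of all tested probe sets were called. The one lower against scl3-1 was AT5G59450 (-0.46, SE 0.10, adjusted p = 0.00252). The higher one, named after its values were seen, was AT1G63100 (0.62, SE 0.21, adjusted p = 0.0309).

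Of 15 listed Casparian strip genes 3 were measured and tested, and they did not move together. Beside GSO1, AT4G34600 averaged 897 ± 98.8 in SCL3OE and 818 ± 91.4 in ga1-3 (SD, n = 3 each) and did not pass (0.13, SE 0.11, adjusted p = 0.342). AT1G61590 gave 885, 843 and 888 in SCL3OE, 1312, 1700 and 1684 in scl3-1, and 1532, 1700 and 1779 in ga1-3. The SCL3OE arrays lay below all others, and scl3-1 and ga1-3 overlapped. AT1G61590 fell by 0.93 on the log2 scale in SCL3OE against ga1-3 (SE 0.11, adjusted p = 7.71e-06) and by 0.83 against scl3-1 (SE 0.11, adjusted p = 2.46e-05), and gave -0.10 in scl3-1 against ga1-3 (SE 0.11, adjusted p = 0.817). The list as a whole therefore had 1 lower and 2 not called in each SCL3OE comparison. Of all tested probe sets, 25.9% were lower against ga1-3 and 23.6% against scl3-1.

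**Figure D4:**
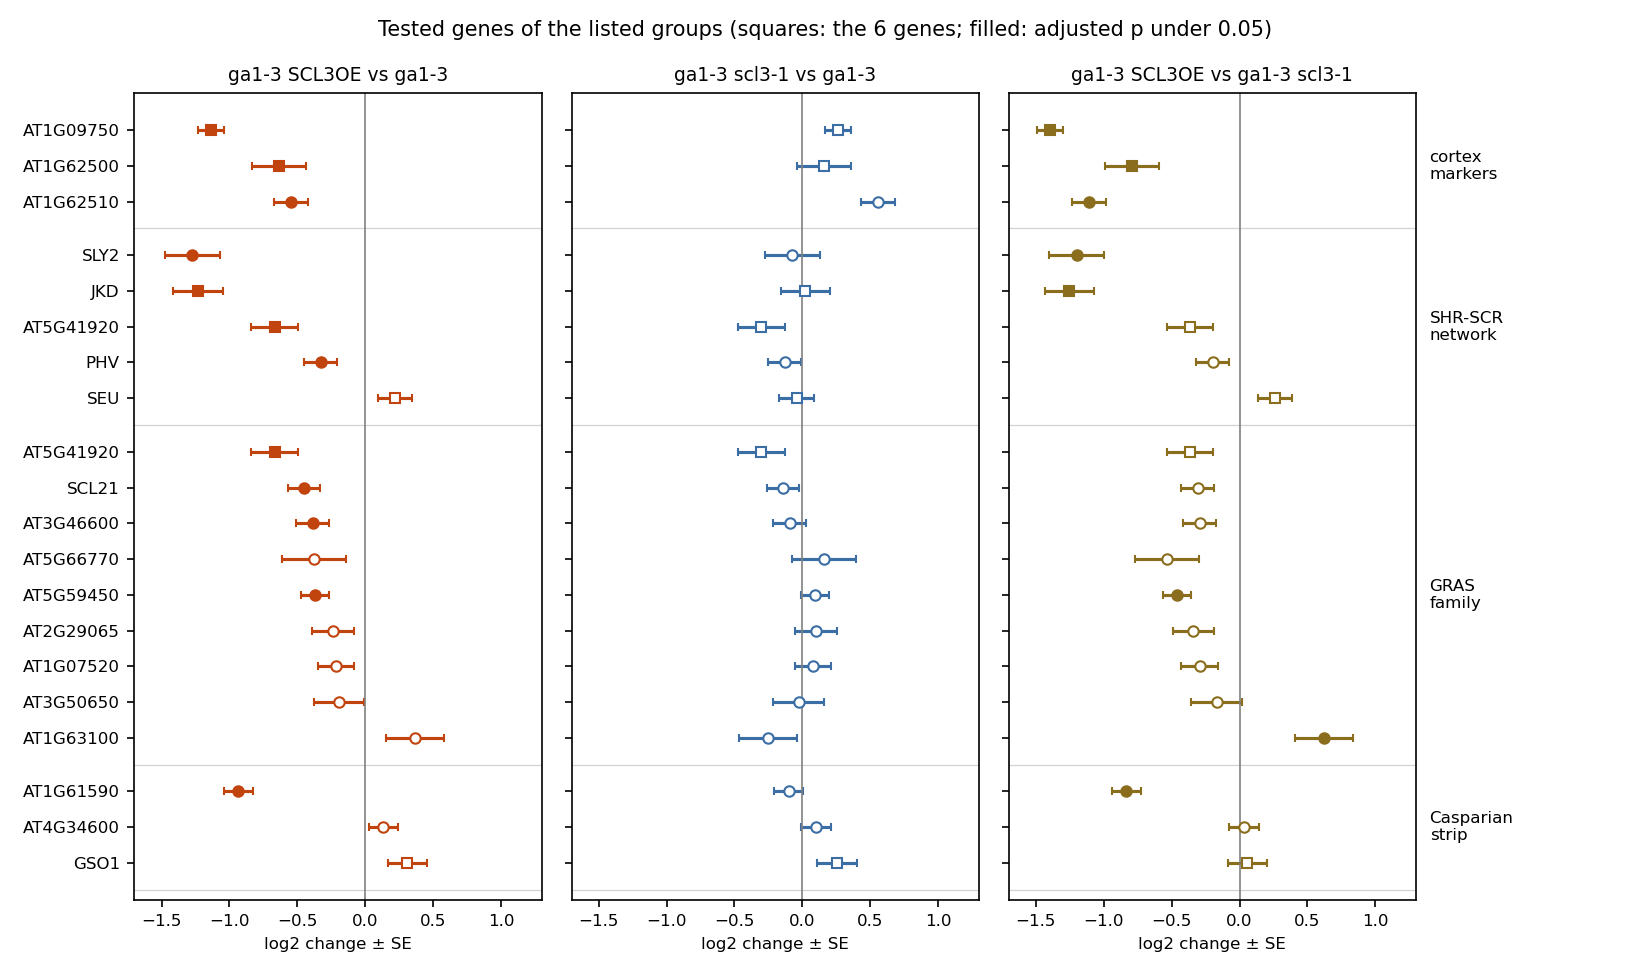
Log2 change of MAS5 signal with its SE (horizontal axes) for the tested genes of 4 lists in the 3 comparisons, with squares for JKD, AT5G41920, SEU, AT1G09750, AT1G62500 and GSO1, circles for other listed genes, and filled symbols for adjusted p under 0.05. All 3 cortex markers are filled and below 0 in both SCL3OE comparisons, and no symbol is filled in scl3-1 against ga1-3.

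Markers of other cell layers also differed in SCL3OE. All 4 measured genes of 15 listed for root hairs and epidermis were lower against ga1-3, where 25.9% of all tested probe sets were lower. Their summed signal was 3875 to 3976 in SCL3OE, 6174 to 6946 in scl3-1 and 6275 to 6412 in ga1-3, with none of the 4 at 0. The 2 with the smallest p were the cell wall xyloglucan enzyme gene XTH26 and the expansin gene EXPA18, which fell by 0.91 on the log2 scale (SE 0.09). XTH26 was at 14.5 to 34.6 on the SCL3OE arrays, far under the filter level, and at 316 to 436 on the ga1-3 arrays, so it was tested only through groups where it was high. The fitted log2 change of XTH26 was -3.94, and -2.46 with an offset of 50, and its size is uncertain. The filter favoured a lower call for XTH26, so the count of 4 is a description only. Of 10 listed photosynthesis genes of shoot tissue 2 were measured. Against ga1-3 the Rubisco activase gene RCA was higher (0.32, SE 0.10) and the light-harvesting gene LHCB4.1 lower (-0.51, SE 0.12). Of all tested probe sets, 18.0% were higher and 25.9% lower in that comparison. The summed signal of RCA and LHCB4.1 was 1830 to 1871 in SCL3OE, 1936 to 2210 in scl3-1 and 1764 to 1921 in ga1-3. The RCA call ended without ga1-3 replicate 1 or any 1 of the SCL3OE arrays (adjusted p 0.0515 to 0.0630). Listed markers of stele, root cap, stem cells and suberin synthesis were on no probe set named here. The part of these other layers in the changes of the cortex markers was not tested.

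For each of the 6 genes the most similar patterns of log2 signal over the 9 arrays were searched among 7672 other tested probe sets with 1 named gene. The points share their arrays and scaling and fall into SCL3OE and the rest, so a high r partly reflects that split, and the value in brackets is r after each group's mean was removed. The genes were picked for their high r on these same arrays, so both values are raised by the search and are descriptions only. For JKD they were AT5G50000 at r = 0.985 (0.820), AT1G26380 at 0.985 (0.90) and AT2G17970 at 0.983 (0.965). For AT5G41920 they were AT3G24120 at 0.980 (0.825), AT3G19990 at 0.976 (0.814) and NDB1 at 0.969 (0.979). SEU was closest to AT1G53030 at 0.950 (0.916), RALFL27 at 0.943 (0.892) and AT4G02370 at 0.943 (0.893). AT1G09750 was closest to AT5G36260 at 0.998 (0.935), AT4G31150 at 0.994 (0.696) and AT5G52790 at 0.993 (0.548). AT1G62500 was closest to AT1G06010 at 0.990 (0.978), AT1G61170 at 0.975 (0.930) and AT4G22580 at 0.970 (0.923), and GSO1 to AT1G75620 at 0.923 (0.938), CPUORF47 at 0.903 (0.886) and AT3G50050 at 0.898 (0.836). None of the 6 genes was among the 3 closest of another. The similar genes differed in size of change: in SCL3OE against ga1-3, AT1G26380 had a log2 change of -4.29 and AT5G50000 one of -0.58, where JKD had -1.23. Of the 18 pairs, 9 stayed among the 3 closest after quantile normalization, 11 with median-centred arrays and 15 with an offset of 50.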

How the data were processed

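The deposited values are MAS5 signals, a linear intensity for each probe set, which the authors computed in Affymetrix Expression Console 1.1, per the submitters' processing notes. Plants grew at 22 °C under 16 h of light, and biotin-labelled RNA was amplified from 300 ng, per the labels. The 2% trimmed mean was 496 to 497 on all 9 arrays, so the deposited scaling was kept. No detection calls were used here.

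Signals were taken to log2 and fitted with a group-means model over all 9 arrays in R 4.3.3 with limma 3.58.1 (eBayes with a mean-variance trend, 6 residual and 9.37 prior degrees of freedom). The code was first tested on simulated data. Probe sets were named from GEO's platform annotation, updated through RefSeq (TAIR10.1): 13513 probe sets had 1 gene, 13436 of which matched a locus, 503 had several genes and 8730 were not listed. The lists held 139 genes, 34 of them on named probe sets. Where a gene had several probe sets, the one with the highest mean was used.

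The 6 genes and the lists were chosen with earlier results of these data known. From each list all tested genes were named where at most 6 were tested, otherwise the 4 with the smallest p in SCL3OE against ga1-3, and 2 for root hair and shoot markers. For each of the 6 genes the 3 most similar by Pearson's r were named. Replicate numbers were not treated as pairs. Deviations from group means correlated between -0.19 and 0.18 for the 9 pairs of the same number. For the 18 pairs of different numbers they correlated between -0.17 and 0.24. A batch shared by arrays of the same number was not tested. Alternatives were other dim filters, scalings, offsets, eBayes settings, array weights, a replicate block, only the 6 arrays compared, other thresholds and each array left out. For listed and similar genes they were added after seeing the data.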

Additional observations from a re-analysis of the deposited data

How the results depend on the processing

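For the 18 log2 changes of the 6 genes, 305 of 324 recomputed values kept their direction and their side of the threshold. Settings under which a gene was no longer tested are not among the 324. Some settings could change only the p-value, not the log2 change or its direction. These were other dim filters, other eBayes settings, a replicate block, only the 6 arrays compared and an array left out of the third group. With a 60th-percentile dim filter JKD, AT5G41920 and AT1G62500 were no longer tested, and 1 of the 6 was called in each SCL3OE comparison. A 2-fold minimum left 2 of the 6 in SCL3OE against ga1-3, and 771 probe sets there and 711 against scl3-1. AT5G41920 was no longer tested when any 1 of the ga1-3 arrays was left out. In SCL3OE against ga1-3, 2 of the 6 were then called without ga1-3 replicate 1 and 3 without ga1-3 replicate 2 or 3, and the counts ranged from 2 to 4 with any 1 array left out. The AT1G62500 change in that comparison ranged from -0.73 to -0.45 with any 1 array left out. Quantile normalization brought calls for SEU (0.34) and GSO1 (0.44) against ga1-3 and for SEU (0.41) against scl3-1. Median-centred arrays did so for GSO1 (0.39) against ga1-3 and SEU (0.38) against scl3-1, and eBayes without trend for AT5G41920 against scl3-1 (-0.36). The causes were not tested.

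The number of probe sets called in scl3-1 against ga1-3, 76, was unstable: 36 with no dim filter, 20 by eBayes without trend, 123 with array weights, 30 with only the 6 arrays compared, 152 at an adjusted p under 0.1, 13 with a 2-fold minimum and 3 to 148 with any 1 array left out. In that comparison uncalled changes near 0 reversed: JKD to -0.011 after quantile normalization, -0.017 with median-centred arrays and -0.029 with array weights, and SEU to 0.016 with array weights. With any 1 array left out JKD ranged from -0.048 to 0.061, SEU from -0.11 to 0.059, AT1G62500 from -0.054 to 0.35, SLY2 from -0.17 to 0.039 and AT1G61590 from -0.17 to 0.021, and GSO1 in SCL3OE against scl3-1 from -0.040 to 0.17. The replicate block called 6175 probe sets in SCL3OE against ga1-3, 73 in scl3-1 against ga1-3 and 5486 in SCL3OE against scl3-1, and changed no call of the 6 genes. Signals near or below the filter level limit JKD and AT5G41920 most.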
